A study of Mus musculus with 4 samples.

Results

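Foxc1, Dmrta2, Barx2, Irx5 and Eya2 are 5 of the 31055 features counted in single muscle stem cells of mouse extraocular muscle (EOM), the muscle that moves the eye, and of the tibialis anterior (TA), a limb muscle. They were chosen by their measured level, which was higher in EOM than in TA cells of these libraries, and matched by symbol. Their EOM to TA values are therefore a description. Droplet single-cell RNA sequencing (10x Genomics) gave 4 libraries, 1 per group. All came from Tg:Pax7-nGFP mice aged 2-4 months, in which a Pax7 transgene drives a nuclear GFP, and all cells were sorted on that GFP. Quiescent EOM and quiescent TA cells were processed straight after sorting. Activated EOM and activated TA cells had been cultured for 4 days on Matrigel at 3% oxygen. Groups could not be tested against each other at 1 library each, and every interval given here covers counting error only (95%, exact). How many animals went into a library is not given in the sources used here.

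All 5 genes encode regulators of transcription. Foxc1 is a forkhead factor that acts in mesoderm, in the vasculature and in the mesenchyme around the developing eye. Dmrta2 has a DM-type zinc finger domain and is known from the patterning of the forebrain. Barx2 is a homeobox factor of the Bar family that acts in myoblasts with Pax7 and MyoD and is tied there to Wnt signalling. Irx5 is an Iroquois homeobox factor of heart, limb and retina. Eya2 is a phosphatase and transcriptional coactivator without a DNA-binding domain of its own that works through DNA-binding partners in muscle precursors. Eye muscle forms from head mesoderm, whereas limb muscle forms from somites under Pax3. Sorted satellite cells leave quiescence in culture, proliferate with Pax7, Myf5 and Myod1, and then switch on Myog and the fusion genes Mymk and Mymx while Pax7 is lost.

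In GENCODE vM21 on GRCm38, Foxc1 lies at chr13:31806633-31812476 (plus strand), Dmrta2 at chr4:109978053-109983687 (plus), Barx2 at chr9:31846044-31913462 (minus), Irx5 at chr8:92357625-92376286 (plus) and Eya2 at chr2:165595032-165771727 (plus). The 5 genes thus sit on 5 different chromosomes. Dmrta2os, an antisense gene on the minus strand, starts 239 bases before Dmrta2, so this pair is divergent and does not overlap. The antisense gene Gm31497 lies within Barx2, and unnamed antisense models lie within Eya2. Whether counting used strand is not given in the sources used here, so reads of these overlapping genes cannot be told apart.

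RefSeq promoter windows, running from 250 bases before to 50 bases after the start, were at hand for Foxc1 and Dmrta2. The Dmrta2 window also holds the start of Dmrta2os, at position 109977813, whose counts are given below beside those of Dmrta2. These windows are shown because only these 2 of the 5 genes had one. Both are read 5′ to 3′ on the plus strand of GRCm38.p6, at chr13:31806396-31806695 and chr4:109977775-109978074, and capitals mark a match to the E-box CANNTG.
Foxc1: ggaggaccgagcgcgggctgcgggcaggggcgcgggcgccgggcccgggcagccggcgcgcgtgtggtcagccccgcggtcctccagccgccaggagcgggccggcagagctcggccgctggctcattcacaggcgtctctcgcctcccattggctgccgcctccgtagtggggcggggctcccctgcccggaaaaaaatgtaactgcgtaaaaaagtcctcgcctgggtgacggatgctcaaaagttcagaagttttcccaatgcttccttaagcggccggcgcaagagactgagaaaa
Dmrta2: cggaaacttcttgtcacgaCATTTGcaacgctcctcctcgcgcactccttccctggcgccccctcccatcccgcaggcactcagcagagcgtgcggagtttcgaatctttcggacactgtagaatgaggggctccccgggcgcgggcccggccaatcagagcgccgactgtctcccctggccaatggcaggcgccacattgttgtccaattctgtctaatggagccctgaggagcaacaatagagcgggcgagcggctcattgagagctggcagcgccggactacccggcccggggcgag
Both strands were searched for 6 motifs. The Foxc1 window held none of them, and the Dmrta2 window held 1 match, to CANNTG, which 72.3% of 32851 promoter windows also hold. The other motifs were the E-box CAGCTG, itself a case of CANNTG and present in 16.3% of windows, the bicoid type TAATCC (7.06%), the homeobox core TAATTA (5.29%), the forkhead core GTAAACA (3.65%) and TCAGGTT (4.07%). The Foxc1 window was 67.3% G or C and the Dmrta2 window 63.7%, beside a median of 52.7% over all windows.

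After filtering, 3596 EOM and 2902 TA cells were kept of the quiescent libraries and 5566 and 4284 of the activated ones, with 15286796 to 122868688 UMIs per library. The median cell held 4664 and 5030 UMIs in the quiescent libraries of EOM and TA, and 21284 and 23364.5 in the activated ones. Muscle stem cell markers were clear in quiescent EOM, where all 8 of the list were present, summing to 3636 CPM, the UMIs of a gene per 1000000 UMIs of the library. Foxc1 is also used by the mesenchyme around the eye, whose 6 listed markers summed to 8.40 CPM in quiescent EOM and 10.2 CPM in activated EOM, against 1.64 and 0.498 CPM in TA, with Sox10, Foxd1 and Alx1 among those at 0 in quiescent EOM. In quiescent EOM cells with 2 or more of the 5 genes the list summed to 4.91 CPM, from 5 UMIs, with 9.34 CPM in cells with 1 gene and 8.29 CPM in cells with none. In activated EOM those sums were 11.1, 9.87 and 10.2 CPM. The muscle stem list was at 3664 CPM in quiescent EOM cells with 2 or more of the genes. Fibroblast markers summed to 597 and 708 CPM in quiescent EOM and TA and to 87.8 and 79.0 CPM in the activated libraries, and mural or smooth muscle markers to 558, 382, 2282 and 1501 CPM in the same order. Their part in the results was not tested. Barcodes shared between libraries were 0.344% to 0.469% of each library's.

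All 5 genes were higher in EOM than in TA in both states, and in TA they were low but above the floor of 3 counts, which is 0.196 CPM in quiescent and 0.0293 CPM in activated TA. Foxc1 was at 47.0 CPM in quiescent EOM (822 UMIs, 43.8 to 50.3), 1.31 CPM in quiescent TA (20 UMIs), 15.1 CPM in activated EOM (1851 UMIs) and 1.05 CPM in activated TA (108 UMIs). It was thus 35.9-fold higher in EOM than in TA before culture (23.1 to 59.1) and 14.3-fold higher after it (11.8 to 17.5). Its TA levels did not differ beyond their counting intervals. Dmrta2 was at 45.95 CPM in quiescent EOM (804 UMIs), 0.392 CPM in quiescent TA (6 UMIs), 22.2 CPM in activated EOM (2723 UMIs) and 0.605 CPM in activated TA (62 UMIs). Its folds, 117 (53.6 to 320.0) before and 36.6 (28.5 to 47.9) after culture, rest on very few TA counts, and its TA levels overlapped.

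Barx2 was at 72.3 CPM in quiescent EOM (1265 UMIs), 3.27 CPM in quiescent TA (50 UMIs), 3.97 CPM in activated EOM (488 UMIs) and 0.156 CPM in activated TA (16 UMIs). It was 22.1-fold higher in EOM before culture (16.7 to 29.9) and 25.4-fold higher after it (15.5 to 44.9). It was the only member of the 5 whose activated EOM level overlapped with its quiescent TA level. Of its 50 UMIs in quiescent TA, 20 came from 8 cells of a 37-cell cluster with Dlk1, Car3, Myog and Actc1 among its leading genes. Barx2 was at 71.2 CPM in that cluster, and without it quiescent TA held 2.00 CPM and the fold was 36.2 (25.2 to 53.8). The other 4 genes had 0 or 1 UMI in the cluster.

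Irx5 was at 51.3 CPM in quiescent EOM (897 UMIs), 0.785 CPM in quiescent TA (12 UMIs), 25.8 CPM in activated EOM (3175 UMIs) and 1.65 CPM in activated TA (169 UMIs). Its fold was 65.3 (37.2 to 127) before and 15.7 (13.4 to 18.4) after culture, and none of its 4 levels overlapped with its neighbour in rank. Eya2 was at 39.6 CPM in quiescent EOM (693 UMIs), 1.505 CPM in quiescent TA (23 UMIs), 13.1 CPM in activated EOM (1611 UMIs) and 0.605 CPM in activated TA (62 UMIs). The corresponding Eya2 folds were 26.3 (17.4 to 41.8) and 21.7 (16.8 to 28.4). The 5 of 5 genes at least 2-fold higher in EOM stand beside 3.02% of 5425 genes in quiescent and 2.06% of 5297 genes in activated cells, a count the choice of genes fixes, and 2.56% and 0.944% were at least 2-fold lower. In such pooled values, fewer cells with a gene and less RNA per cell cannot be told apart.

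**Figure D1:**
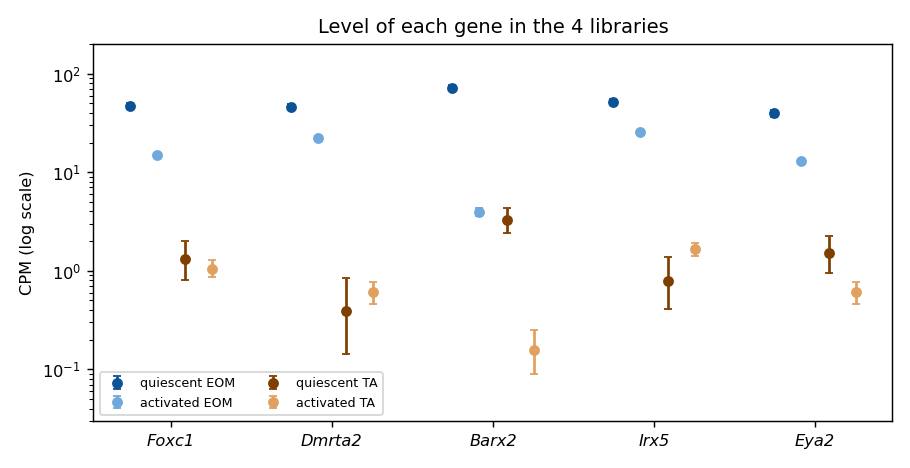
Level of the 5 genes in CPM (log axis) in the 4 libraries, with bars for exact 95% counting intervals and 1 library per group. Every EOM point lies above the TA point of the same state, and activated EOM Barx2, at 3.97 CPM, lies beside quiescent TA Barx2, at 3.27 CPM.

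Detection in single cells was compared after thinning each cell to 2000 UMIs. In quiescent EOM a UMI was found in 8.03% of 3514 cells for Foxc1, 8.25% for Dmrta2, 10.5% for Barx2, 8.85% for Irx5 and 7.001% for Eya2. In quiescent TA (2845 cells) the corresponding shares were 0.422%, 0.0703%, 0.387%, 0.141% and 0.246%. Every EOM share lay above the interval of its TA share. In activated EOM (5535 cells) the shares were 3.11% for Foxc1, 4.44% for Dmrta2, 0.741% for Barx2, 4.63% for Irx5 and 2.42% for Eya2, and in activated TA (4237 cells) at most 0.260%, for Irx5. Thinned to 10000 UMIs, activated EOM cells (5214) held Foxc1 in 13.1%, Dmrta2 in 18.5%, Barx2 in 3.91%, Irx5 in 21.2% and Eya2 in 12.3%, beside 0.224% to 1.84% in activated TA. Unthinned shares in quiescent EOM were 16.96% (Eya2) to 19.4% (Irx5), so at this depth most cells gave no UMI of a given gene. No cluster of another cell type was found in the EOM libraries, so the share set by free RNA could not be read there. In 16 endothelial-like cells of quiescent TA, with a median of 5194.5 UMIs, Foxc1 had 2 UMIs and the other 4 genes had 0, and 1 of the 13 cells deep enough to thin held Foxc1.

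The 5 genes differed unequally after culture. As a share of all UMIs, all 5 were lower in activated than in quiescent EOM. Barx2 was 18.2-fold lower (16.4 to 20.2), Foxc1 3.12-fold (2.87 to 3.39), Eya2 3.02-fold (2.76 to 3.30), Dmrta2 2.07-fold (1.91 to 2.24) and Irx5 1.98-fold (1.84 to 2.14). The 4 of 5 genes at least 2-fold lower stand beside 24.4% of 6423 genes, and 0 of 5 were at least 2-fold higher beside 27.5%. The median gene was 0.14 higher on the log2 scale, and with TMM or median-of-ratios factors Dmrta2 no longer reached 2-fold, which left 3 genes. Under those factors all 5 were still lower.

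Counted per cell instead, the picture was split. UMIs of Barx2 per cell were 0.352 in quiescent and 0.0877 in activated EOM, whereas those of Foxc1 were 0.229 and 0.333, of Eya2 0.193 and 0.289, of Dmrta2 0.224 and 0.489, and of Irx5 0.249 and 0.570. Only Barx2 was lower on this scale, on which the median cell of activated EOM held more UMIs of all genes. How far RNA content, and how far capture or sequencing depth, set that depth was not tested.

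**Figure D2:**
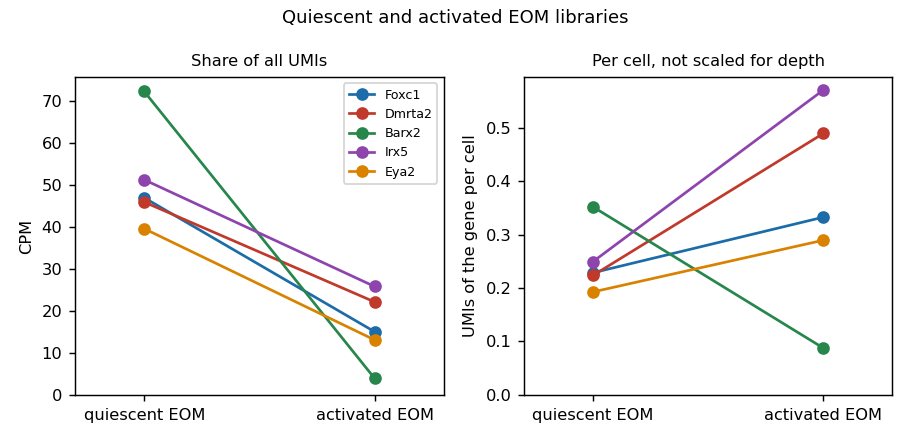
Level of each gene in quiescent and activated EOM as CPM (left) and as UMIs of the gene per cell, not scaled for depth (right). All 5 lines descend on the left, and on the right only Barx2 descends, from 0.352 to 0.0877 UMIs per cell.

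In TA, Barx2 was also lower after culture, 20.9-fold (11.7 to 39.4), and Eya2 was 2.49-fold lower (1.47 to 4.07). Without that 37-cell cluster, the activated Barx2 level was 0.0781-fold the quiescent one (0.0398 to 0.148). These 2 of 5 genes at least 2-fold lower stand beside 24.6% of 6302 genes. Those 6302 genes were at 20 CPM or more in either library, a level none of the 5 genes had in TA. The count was 1 at a mitochondrial limit of 5%, with 46 quiescent TA cells. Irx5 went the other way, from 12 to 169 UMIs, a CPM 2.10-fold higher (1.17 to 4.15), beside 30.5% of genes at least 2-fold higher. Foxc1 at 0.806-fold (0.497 to 1.37) and Dmrta2 at 1.54-fold (0.669 to 4.36) had intervals that include 1. Counted per cell and not scaled for depth, Barx2 in TA was at 0.217-fold after culture, while Eya2 was 1.83-fold, Foxc1 3.66-fold and Irx5 9.54-fold higher, and Dmrta2 went from 0.00207 to 0.0145 UMIs per cell.

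Within quiescent EOM the cells did not share Barx2 evenly. One cell held 20 UMIs of it, and 135 cells with 3 or more held 48.8% of its UMIs. The other 4 genes reached at most 4 (Eya2) to 8 (Foxc1) UMIs in a cell, and cells with 3 or more held 4.47% to 13.9% of theirs. At 2000 UMIs per cell the variance of Barx2 over its mean was 1.74, at the 98.6th percentile of 3776 genes between 20 and 100 CPM, whose median was 1.05. Foxc1 (1.198), Irx5 (1.195), Dmrta2 (1.09) and Eya2 (1.03) lay at the 91.9, 91.6, 72.8 and 36.9 percentiles.

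Barx2 also differed most between clusters of quiescent EOM cells. It was at 196 CPM in 110 cells led by Tm4sf1, S100a4, Il33 and Esm1, 109 CPM in 795 cells led by the amino acid stress genes Asns and Chac1, and 108 CPM in 165 cells led by interferon response genes such as Ifit3. It was at 32.9 CPM in 909 cells with the early response genes Fos and Nr4a1 and a little Myog among their leading genes, and at 33.6 CPM in 96 cells led by the sterol synthesis genes Idi1 and Msmo1. In the remaining clusters of at least 50 cells it was at 41.8 CPM (792 cells) and at 77.6 CPM (717 cells led by the matrix and fibroblast genes Mgp, Lum, Dcn and Col1a1 with Il6). Over these 7 clusters Foxc1 ranged from 39.7 to 57.9 CPM, Dmrta2 from 31.7 to 55.4, Irx5 from 34.0 to 70.5 and Eya2 from 31.1 to 49.2. Irx5 was highest in the Fos-led cluster, in which Barx2 was lowest. An eighth cluster of 12 cells was too small to read. Clusters were formed on all variable genes, so these levels are a description.

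**Figure D3:**
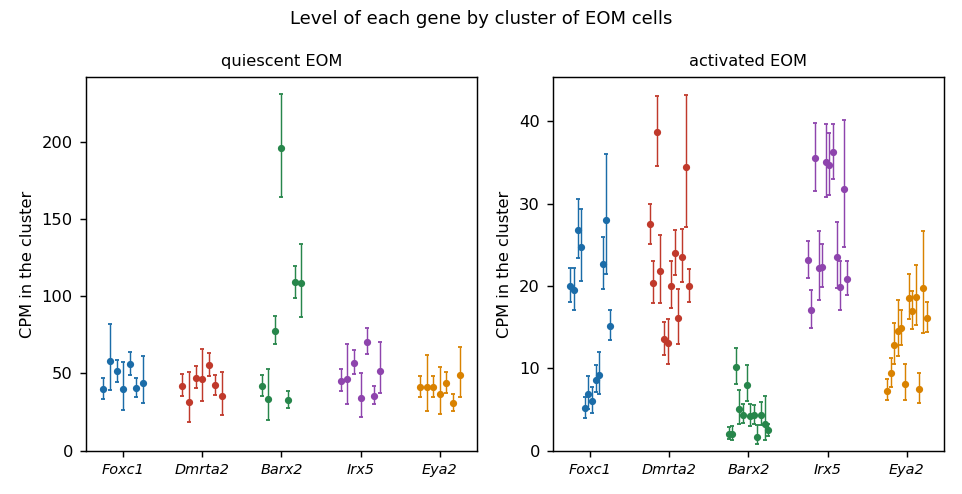
Level in CPM, with exact 95% counting intervals, of each gene in each cluster of at least 50 cells of quiescent EOM (left) and activated EOM (right), in the order of cluster number and on separate axes. Barx2 spreads from 32.9 to 196 CPM on the left, and Foxc1 has a low and a high set of clusters on the right.

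Co-detection of the genes in single EOM cells was close to what independent detection gives. In quiescent EOM at 2000 UMIs, 6 of 10 pairs were found together more often than the product of their single shares. Over all genes detected in at least 5% of cells, the median ratio was 0.993 with Irx5 to 1.01 with Barx2, so ratios above 1 were common. Foxc1 and Dmrta2 were together in 34 cells where 23.3 would be independent, a ratio of 1.46 (1.01 to 2.04). That ratio was 1.01 with doublets kept, where cells were also thinned by a new random draw. The intervals do not cover the spread between draws. Dmrta2 and Eya2 were together in 27 where 20.3 would be independent, a ratio of 1.33 (0.876 to 1.94). Foxc1 and Eya2 gave the lowest ratio, 0.709, with 14 cells for 19.7. Set against the 4311 genes detected in at least 5% of cells, 90% of pairs with Foxc1 had ratios between 0.733 and 1.29. In activated EOM at 10000 UMIs, 7 of 10 pairs were above 1, beside medians over all such genes of 0.998 with Barx2 to 1.02 with Foxc1. The pair ratios ran from 0.762 for Foxc1 and Eya2 (64 cells for 83.9, 0.587 to 0.974) to 1.27 for Barx2 and Irx5 (55 cells for 43.2, 0.960 to 1.66). Foxc1 with Dmrta2 gave 1.17 (149 cells for 127, 0.992 to 1.38). The value for Foxc1 and Eya2 lay below the range of 0.806 to 1.27 that 90% of 8571 genes had with Foxc1. It was 0.997 with doublets kept and a new thinning draw, and 1.68 at 2000 UMIs. Foxc1 with Dmrta2 was at 0.654 at 2000 UMIs, from 5 cells.

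**Figure D4:**
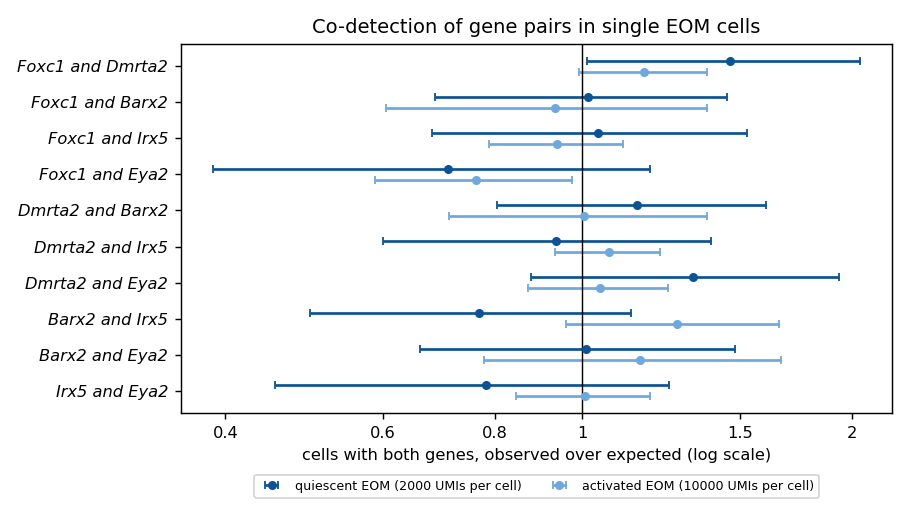
Cells with both genes of a pair, observed over expected from the single shares (log axis), in quiescent EOM at 2000 UMIs and activated EOM at 10000 UMIs per cell, with exact 95% counting intervals. Of the 20 intervals, those of Foxc1 with Dmrta2 in quiescent cells and of Foxc1 with Eya2 in activated cells leave out 1. Neither ratio held with doublets kept, where cells were also thinned by a new random draw.

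The number of the 5 genes per cell gave the same picture. In quiescent EOM 64.1% of cells held none, 29.7% held 1, 5.63% held 2, 0.455% held 3 and 0.0569% held 4, where independence gives 64.0%, 29.9%, 5.55%, 0.512% and 0.0235%. In activated EOM the shares were 47.5%, 38.0%, 12.5%, 1.82% and 0.115%, where independence gives 47.0%, 38.9%, 12.2%, 1.76% and 0.115%. No cell held all 5 in either library. Across cells the pairs' Pearson r ran from -0.0282 to 0.0368. With so few UMIs per cell such values are no finding, and cells of 1 library are not replicates.

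The marker genes of muscle stem cells were found about as often in quiescent EOM cells with a given gene as in those without. Pax7 was detected in 38.3% of Foxc1-positive and 38.7% of Foxc1-negative cells, and in 34.0% of Barx2-positive and 39.2% of Barx2-negative cells. Myf5 was in 34.6% to 36.6% of the positive cells of the 5 genes. Classed by Pax7 at 2000 UMIs (1359 cells with, 2155 without), quiescent EOM cells with Pax7 held 1.31-fold more Dmrta2 (1.14 to 1.51), 1.24-fold more Irx5 (1.08 to 1.42) and 0.731-fold the Barx2 (0.647 to 0.824). Foxc1 at 1.06-fold and Eya2 at 1.10-fold had intervals that include 1. None of the 5 was 1.5-fold apart, beside 1.4% of 5423 genes higher and 1.79% lower. In quiescent TA, Barx2 was at 1.69 CPM with Pax7 and 4.69 CPM without it. That library held only 50 Barx2 UMIs, 20 of them in 8 cells of the 37-cell cluster, which was not taken out here.

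In activated EOM the genes parted by differentiation state. At 10000 UMIs, 3922 of 5214 cells held a UMI of Myog, Mymk or Mymx. Foxc1 was at 13.2 CPM in these and 20.1 CPM in the other 1292 cells, a ratio of 0.659 (0.598 to 0.727), and Dmrta2 was at 20.7 and 26.1 CPM (0.793, 0.730 to 0.862). The other 3 genes were higher with Myog. Barx2 was at 4.25 and 3.24 CPM (1.31, 1.05 to 1.65), Irx5 at 27.2 and 20.9 CPM (1.305, 1.196 to 1.42) and Eya2 at 14.1 and 10.1 CPM (1.40, 1.23 to 1.58). Foxc1 alone reached a 1.5-fold difference, beside 6.1% of 5463 genes lower and 7.74% higher. At a mitochondrial limit of 5%, which left 614 cells before thinning, its ratio was 1.05, and it was 0.667 with doublets kept or with the differentiation genes left out, just short of 1.5-fold.

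A single UMI made a loose class, since 1765 cells had 1 to 9 UMIs of the 3 genes. With 10 or more required (2157 cells), a limit chosen after these data were seen, Foxc1 was at 6.94 CPM in the Myog-high cells and 20.1 CPM in the rest, a ratio of 0.346 (0.306 to 0.390), beside 18.7% of 5570 genes at least 1.5-fold lower and 11.7% higher. The ratio of Dmrta2 was then 0.719, of Barx2 1.35, of Irx5 1.35 and of Eya2 1.31. The same classes in activated TA gave Foxc1 at 0.534 CPM in Myog-high cells and 1.53 CPM in the rest, a ratio of 0.350 (0.214 to 0.553). There Barx2 (8.14, 1.87 to 73.8), Eya2 (1.97, 1.15 to 3.46), Irx5 (1.497, 1.09 to 2.06) and Dmrta2 (1.72, 1.01 to 2.98) were higher in Myog-high cells. Dmrta2 thus lay on different sides of 1 in EOM and TA, a difference that was not tested. In activated TA 10.1% of 5392 genes at 20 CPM, a level none of the 5 genes has there, were at least 1.5-fold lower and 8.57% higher.

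The genes were also split by Pax7 state. Activated EOM cells with Pax7 (2124) held 19.9 CPM of Foxc1 and those without (3090) 11.4 CPM, a ratio of 1.75 (1.59 to 1.92). Dmrta2 was 1.27-fold higher with Pax7 (1.17 to 1.37), Irx5 0.850-fold (0.790 to 0.914) and Eya2 0.803-fold (0.723 to 0.890), while the interval of Barx2 at 0.935-fold included 1. Foxc1 was the 1 gene of 5 at least 1.5-fold higher, beside 7.2% of 5430 genes. At least 1.5-fold lower were 0 of 5, beside 7.2%. Those percentages cover genes at 20 CPM or more in either class, a level that Foxc1, Barx2 and Eya2 did not reach. The Foxc1 ratio missed 1.5 with classes read at 2000 UMIs (1.44) and at the 5% mitochondrial limit (1.42). Between cells with Pax7 and no Myog-state UMI (846) and cells with the reverse (2644), Foxc1 was 2.06-fold higher, Dmrta2 1.41-fold higher, Irx5 0.738-fold and Eya2 0.636-fold, with 13.4% of 5553 genes at least 1.5-fold higher and 10% lower. Among cells without a Myog-state UMI, Foxc1 was at 20.5 CPM with Pax7 and 19.2 CPM without it (1.07, 0.903 to 1.27), beside 0.0571% of 5253 genes higher and 0.0381% lower. Among cells with one, Foxc1 was at 19.5 CPM with Pax7 and 9.96 CPM without it (1.96, 1.75 to 2.20). Of 5437 genes at 20 CPM or more, which leave out Foxc1 here, 9.38% were higher and 7.76% lower.

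Along 5 bins of activated EOM cells ranked by their share of UMIs from 20 differentiation genes, none of them one of the 5, each gene had its own course. Foxc1 was at 20.9, 19.7, 18.2, 8.79 and 5.64 CPM from the least to the most differentiated bin, 3.71-fold apart between the ends (3.05 to 4.53). Dmrta2 was level at 24.1, 24.9 and 25.4 CPM and then lower at 21.3 and 13.8 CPM. Irx5 was highest in bin 4, with 19.5, 21.6, 27.2, 33.6 and 28.8 CPM, and so was Eya2, with 8.24, 11.7, 16.2, 18.3 and 11.7 CPM. Barx2 was highest in the last bin, with 2.45, 3.10, 4.51, 3.54 and 6.58 CPM, 2.68-fold above the first (1.99 to 3.66). Over the same bins Pax7 went from 124 to 4.04 CPM and Myog from 45.2 to 4911 CPM.

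In activated TA, Foxc1 was at 1.90, 1.31, 1.303, 0.307 and 0.312 CPM along the bins, with 41 UMIs in the first and 6 in the last. Of the 16 Barx2 UMIs in activated TA, 14 were in the last bin. The clusters of activated EOM cells showed the same order, with Foxc1 at 5.1 to 9.2 CPM in the 5 clusters with Myog at 1414 CPM or more and at 15.2 to 28.1 CPM in the other clusters of at least 50 cells.

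**Figure D5:**
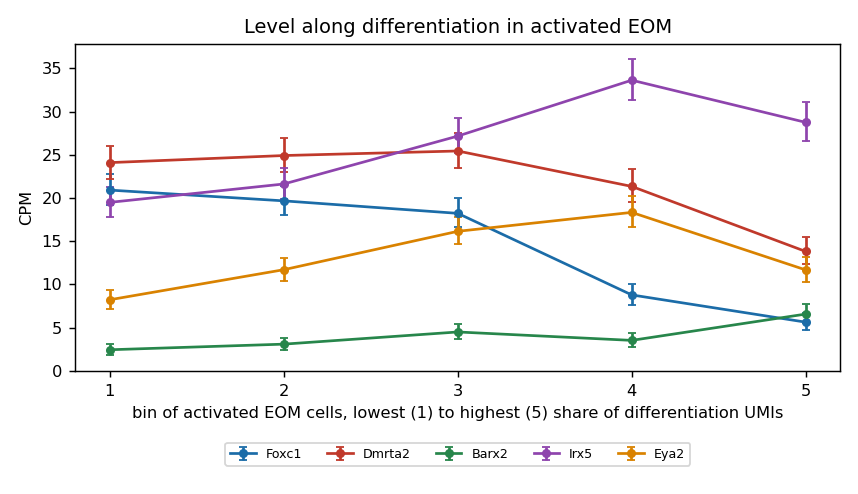
Level in CPM, with exact 95% counting intervals, of the 5 genes in 5 equal bins of activated EOM cells ranked by their share of differentiation UMIs. Foxc1 is at 18.2 CPM in bin 3 and 8.79 CPM in bin 4, Irx5 and Eya2 peak in bin 4, and Barx2 is highest in bin 5.

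Cell cycle state moved with the same axis. Activated EOM cells with a UMI of Mki67 or Top2a (4155) held 16.5 CPM of Foxc1 and the other 1059 cells 7.82 CPM, a ratio of 2.11 (1.80 to 2.49). Dmrta2 was 1.47-fold higher in cycling cells (1.31 to 1.65), Barx2 0.697-fold (0.564 to 0.868), and Irx5 (0.973) and Eya2 (1.07) had intervals that include 1. Foxc1 was the 1 gene at least 1.5-fold higher, beside 20.2% of 5477 genes. At least 1.5-fold lower were 0 of 5, beside 10.6%. Foxc1, Barx2 and Eya2 were below the 20 CPM that such background genes reach, here and within the Myog-state cells. Within the Myog-state cells Foxc1 was 2.25-fold higher in cycling cells (1.88 to 2.71), beside 19.4% of 5414 genes higher and 10.1% lower. Without Myog it was 0.832-fold (0.586 to 1.22), beside 3.99% of 5407 genes higher and 2.16% lower, and only 72 of those cells were not cycling. Cycling cells were also the deeper ones, with a median of 22559 against 19632 UMIs, and the part of depth in these ratios was not tested.

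All 5 genes were higher in EOM than in TA within each differentiation class counted, a description of genes chosen for this difference in these same libraries. In Myog-high activated cells the EOM to TA fold was 13.0 for Foxc1 (8.64 to 20.4), 22.5 for Dmrta2, 15.8 for Barx2, 15.1 for Irx5 and 18.3 for Eya2. In the rest it was 13.2, 53.9, 95.5, 16.8 and 27.5, of which the Barx2 value rests on very few TA UMIs (26.2 to 793). The TA cells with any of the 5 genes were 82 of 2902 quiescent and 359 of 4284 activated cells. A single quiescent and 20 activated TA cells held 2 or more of the genes. Barcodes that TA shared with another library held 0 of 111 UMIs of the 5 genes in quiescent and 1 of 417 in activated TA.

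Few relatives of the 5 genes were expressed at a level that could be compared. Of 16 family relatives, 3 reached 20 CPM in a quiescent library, and 0 of these were 2-fold apart, beside 3.02% of 5425 genes higher and 2.56% lower. Likewise 0 of the 1 that reached it after culture were 2-fold apart, beside 2.06% of 5297 genes higher and 0.944% lower. Eya1 was at 40.3 CPM in quiescent EOM and 45.2 in quiescent TA, Eya4 at 49.9 and 37.2, and Dmrt2 at 20.9 and 22.8. After culture Eya1 was at 9.73 and 6.52 CPM, Eya4 at 55.3 and 47.6, and Dmrt2 at 5.52 and 2.55 CPM. Below that level, and named after their values were seen, Irx3 was at 14.4 and 3.53 CPM in quiescent cells and Foxc2 at 6.32 and 2.31 CPM in activated cells. Irx4 and Irx6 had no UMI in any library. Dmrta2os, the divergent neighbour of Dmrta2, had 170 UMIs in quiescent EOM and 0 in quiescent TA, at least 49.5-fold higher against a floor of 3 counts in the TA library (exact 95% lower bound 39.8), and 105 and 1 UMIs in the activated libraries.

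The listed network in which Eya2 acts, with Eya and Dach genes among its members, was mixed. Of its 9 listed genes 4 reached 20 CPM in quiescent cells. Dach1, a corepressor, was the 1 at least 2-fold higher in EOM, at 28.7 against 5.89 CPM, beside 3.02% of 5425 genes. Six4 was at 4.40 and 9.62 CPM in quiescent and 28.7 and 27.0 CPM in activated EOM and TA cells. The median log2 ratio of the list was -0.35 in quiescent and 0.09 in activated cells, beside 0.06 and -0.02 over all genes at 20 CPM.

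The 12 head muscle regulators had 5 members at 5 CPM in each state. Their median EOM to TA log2 ratio was 1.28 before and 1.38 after culture, beside 0.06 and -0.02 over all genes at 20 CPM. Of the 2 listed genes at 20 CPM in quiescent cells, 1 favoured EOM by 2-fold or more, beside 3.02% of 5425 genes. The second, Msc (musculin), favoured TA, with 78.0 CPM in EOM and 296 CPM in TA, beside 2.56%. After culture the 1 listed gene at 20 CPM favoured EOM by 2-fold or more, beside 2.06% of 5297 genes. Msc was then at 4.56 CPM in EOM and 7.92 CPM in TA. Of the 12 Wnt pathway genes, listed because of Barx2, Ctnnb1 was at 289 and 250.3 CPM in quiescent EOM and TA, Tcf7l2 at 44.2 and 43.6, and Tcf7l1 at 20.5 and 16.3 CPM. Of the 4 genes of that list at 20 CPM in quiescent cells, Ccnd1 (cyclin D1) was the 1 at least 2-fold lower in EOM, at 6.57 against 44.9 CPM, beside 2.56% of 5425 genes. After culture it was at 169 and 242 CPM. Then 0 of the 3 listed genes at 20 CPM were 2-fold apart, beside 2.06% of 5297 genes higher and 0.944% lower. Below that level, and named after their values were seen, activated EOM held 4.47 CPM of Lgr5 against 0.546 in TA, and 1.55 CPM of Lef1 against 0.322. Axin2, Nkd1, Tcf7 and Fzd7, also listed and below that level, had EOM to TA ratios of 1.10, 1.32, 1.01 and 0.888. The intervals of these ratios include 1.

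Among 6255 genes at 20 CPM or more in some library, 4 of the 5 genes had each other among their nearest by centred log2 level over the 4 libraries. The nearest to Foxc1 was Eya2, at a distance of 0.35, and the nearest to Dmrta2 was Irx5, at 0.44. For all 5, Tmem100 was among the nearest, at 31.5, 2.62, 5.86 and 0.312 CPM in quiescent EOM and TA, activated EOM and TA, and for those 4 Islr as well. Barx2 stood closer to matrix genes than to the other 4. Its nearest was the elastic fibre gene Mfap4, at 0.53, with 55.7, 3.07, 3.43 and 0.478 CPM, and then Fbln5, Tmem100, Dach1 and Ccdc80. Since the 5 genes were chosen for one side of this pattern, their closeness over 4 libraries is a description.

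Over 5214 activated EOM cells, which share 1 library and its depth, correlations with the 5 genes ran from -0.176, for Foxc1 with Myog, to 0.141. The most negative for Foxc1 after Myog were Tmsb10 and Mymx, both at -0.165. The highest for Foxc1 were Cald1, Col1a2, Tagln2, Mgp and Id3, for Dmrta2 the cell division genes Cenpe, Mki67, Cenpf and Smc4 with Marcks, and for Barx2 Car3, Mybpc1, Spats2l, Neb and Myh8. For Irx5 they included Ube2c, Spc25, Tnnt3 and Cdca8 (at most 0.0825), and for Eya2 Tpm1, Tubb2a, Prox1, Myod1 and Rbm24 (at most 0.0755). Values this small in sparse counts are no finding.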

How the data were processed

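Muscle stem cells were measured by 10x Genomics single-cell RNA sequencing in 4 libraries, 1 per group. The deposited files hold raw UMI counts of each gene in each barcode. The pipeline was Cell Ranger 3.0.2 and the genome mm10, as the submitters' processing notes have it. The sources used here do not give the annotation release, the rule for calling cells or the use of strand. Barcodes with at least 500 genes and at most 10% mitochondrial UMIs were kept. Scrublet's own threshold marked at most 1 barcode per library and did not work, so barcodes were taken out from the highest doublet score down, 0.8% per 1000 barcodes. Leiden clusters (scanpy 1.11.5, igraph 0.11.9) with markers of another cell type were dropped, which took 16 endothelial-like cells of quiescent TA. A 37-cell quiescent TA cluster with some markers of another cell type was kept unnamed, because muscle genes led it too, a condition set after it was seen.

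UMIs were summed over kept cells and scaled to CPM. Intervals are exact at 95% (Poisson for levels, ratio of Poisson rates for folds, binomial for shares) and treat UMIs as independent. Cells were thinned without replacement to 2000 UMIs, or to 10000 UMIs in activated libraries, and shallower cells left out. States were read as 1 or more UMIs at 10000 (Myog, Mymk or Mymx; Pax7; Mki67 or Top2a). Background percentages cover genes at 20 CPM or more in either side, called at 2-fold between libraries and 1.5-fold between classes. Members below that level were counted beside them all the same. Log2 ratios use a pseudocount of 1 CPM. Alternatives included other cell filters, TMM factors (edgeR 4.0.16) and other class limits. Steps were checked on simulated data.

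The 5 genes and the lists were chosen with earlier results of these data known. The text names the 5 genes, listed relatives at 20 CPM or more in any library, the 5 genes nearest to each over libraries, and the 5 with the highest correlation over activated EOM cells. Some genes that this rule names are not reported here. Promoter windows are from RefSeq (GRCm38.p6) and matched 2 of the 5 genes by symbol. Positions are from GENCODE vM21.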

Additional observations from a re-analysis of the deposited data

Results flagged for a closer look

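Irx5 lay in opposite directions in the 2 muscles after culture on the CPM scale. Its activated CPM was 0.504-fold the quiescent one in EOM and 2.10-fold in TA, and neither counting interval included 1. The TA value rests on 12 quiescent and 169 activated UMIs. In UMIs per cell, not scaled for depth, Irx5 was higher after culture in both, 2.29-fold in EOM and 9.54-fold in TA. Over all cells thinned, Irx5 also changed sides with Pax7 in EOM. It was 1.24-fold higher in quiescent cells with Pax7 than in those without, and 0.850-fold in activated cells with Pax7. Pax7 was read at a lower depth in quiescent than in activated cells, so these classes are unlike. Among activated cells without a Myog-state UMI, Irx5 was 1.03-fold with Pax7 (0.873 to 1.21), an interval that includes 1. Among activated cells with one it was 0.862-fold (0.790 to 0.940). Each group is 1 library, so neither the difference between muscles nor that between quiescent and activated EOM was tested.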

How the results depend on the processing

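All 5 genes remained at least 2-fold higher in EOM than in TA in both states under every cell filter, scaling, pseudocount and cell subset tried. They were chosen for this difference in these same libraries, so that outcome is a description and no support. A mitochondrial limit of 5% left 263 EOM and 46 TA cells of the quiescent libraries and 614 and 490 of the activated ones, so results at that limit rest on few cells. At that limit the number of genes at least 2-fold lower in TA after culture was 1 instead of 2, and Foxc1 there had a log2 ratio of 0.84 instead of -0.17. The number at least 1.5-fold lower in the Myog state was 0 instead of 1 with the 5% limit (Foxc1 ratio 1.05), with the differentiation genes left out of the totals (0.667) and with doublets kept (0.667). The number at least 1.5-fold higher with Pax7 was 0 instead of 1 with the 5% limit (Foxc1 1.42) and with classes read at 2000 UMIs (1.44). Barx2 crossed 1 by Pax7 state, at 1.03 with classes at 2000 UMIs and 1.21 with classes at 2 UMIs.

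Single co-detection ratios often crossed 1. Runs with doublets kept also used a new thinning draw, and the part of each change was not tested. With doublets kept, quiescent EOM gave 0.985 for Foxc1 with Barx2, 1.48 for Dmrta2 with Irx5 and 0.894 for Barx2 with Eya2. Activated EOM with doublets kept gave 1.28 for Foxc1 with Barx2, 1.09 for Foxc1 with Irx5, 0.867, 0.999 and 0.931 for Dmrta2 with Barx2, Irx5 and Eya2, and 0.979 for Barx2 with Eya2. At 2000 UMIs activated EOM gave 0.654, 1.57, 1.13 and 1.68 for Foxc1 with Dmrta2, Barx2, Irx5 and Eya2, and 0 and 0.879 for Dmrta2 with Barx2 and Irx5. Within Myog-state cells the ratio was 1.01 for Foxc1 with Irx5, 0.909 for Dmrta2 with Barx2 and 0.962 for Irx5 with Eya2, and among the other cells 1.18 for Foxc1 with Barx2. The causes were not tested. Added after the data were seen were the Myog limit of 10 UMIs, the removal of the 37-cell quiescent TA cluster and the alternatives for culture in TA. No paired analysis was possible because each group has 1 library. Libraries without replicates and under 1 UMI per cell of each gene limit every value.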

Other observations

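Other head muscle regulators below 20 CPM, named after their values were seen, differed between the muscles too. Alx4, a homeobox factor, was at 18.1 CPM in quiescent EOM and 0.262 in quiescent TA, and at 10.7 CPM in activated EOM with no UMI in activated TA. Tcf21 was at 8.52 CPM in quiescent EOM and 0.131 in quiescent TA, and at 0.163 CPM in activated EOM. Pitx1 had 14 UMIs in quiescent EOM and 641 in activated EOM (5.22 CPM), and 1 UMI in each TA library. Tbx1, a factor of branchial arch muscle, was lower in EOM, at 0.343 and 0.350 CPM against 16.1 and 19.8 CPM in TA.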
